A study of Homo sapiens with 6 samples.

Results

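Of the 49293 probe sets measured on the Affymetrix Human Genome U219 array, after 93 control probe sets were left out, 1327 are listed in the platform annotation with more than 1 gene. A probe set is a group of short oligonucleotides on the array whose signals are combined into 1 value. These 1327, the members described here, were taken by a single rule, an annotation entry that holds 2 or more gene symbols. The rule uses no measured value, but it was set with earlier results of these data known. The remaining probe sets are listed with 1 gene (45253) or with none (2713).

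RNA came from LNCaP, an established human prostate adenocarcinoma cell line that responds to androgen, cultured in F12 with 7% fetal bovine serum. The control group holds 3 arrays of cells without urolithin A, called untreated in the sample titles and given saline according to the treatment protocol. The treated group holds 3 arrays of cells kept for 24 h with 40 µM urolithin A, a compound that gut bacteria form from the ellagitannins of pomegranate, berries and walnuts. The solvent of urolithin A is not given in the sources used here. Whether the 3 arrays of a group stand for independently grown cells is not given, and a p-value therefore refers to the spread among the arrays alone, part of which may be technical. Each group is 1 cell line at 1 dose and 1 time.

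Human genes often exist in near-identical copies. Some arose by duplication of a stretch of chromosome, others by reverse transcription of an mRNA into a processed pseudogene, and neighbouring genes can also share exons or be joined in a readthrough transcript. An oligonucleotide that matches a stretch common to such genes binds the transcripts of each of them, so its signal is a sum over the copies that are expressed. A value from such a probe set therefore belongs to the set of genes and is never given here to 1 of them. Families of this kind include immune receptors, olfactory receptors, cancer-testis genes and the gene blocks of segmental duplications, and several of them are normally silent in prostate epithelium.

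The 1327 probe sets carry 898 distinct entries made of 1815 symbols. There are 970 with 2 symbols, 203 with 3, 65 with 4 and 89 with 5 or more, up to 18. In 58 of them a single symbol is repeated under several gene identifiers. The platform marks probe sets whose oligonucleotides all match several transcripts of different genes with the name ending _s_at, which 58.9% of these probe sets carry (781), against 11.8% of those with 1 gene. The ending _x_at, which marks partly cross-matching oligonucleotides, was found in 18.8% against 16%. An entry had more than 1 probe set in 267 cases, which together hold 696 probe sets, and the entry of RHCE and RHD had the most, 10.

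2 pairs of genes show how alike the genes of an entry can be beyond their exons. They are printed because both entries rose after urolithin A, and each line gives the 250 bases before the gene's start, 5′ to 3′ on the gene's strand, from RefSeq on GRCh38.p14. RHD and RHCE encode the red cell proteins that carry the Rh blood group. The RHD window is chr1:25272259-25272508 on the + strand and the RHCE window is chr1:25420826-25421075 on the - strand. They are identical at 248 of 250 positions (99.2%), and the capitals mark the only match to AGATAA, a core recognised by GATA factors.
RHD: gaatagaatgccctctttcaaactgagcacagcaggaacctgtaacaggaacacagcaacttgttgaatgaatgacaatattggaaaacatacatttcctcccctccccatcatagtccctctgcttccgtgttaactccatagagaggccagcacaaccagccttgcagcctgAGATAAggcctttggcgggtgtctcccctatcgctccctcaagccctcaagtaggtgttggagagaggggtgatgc
RHCE: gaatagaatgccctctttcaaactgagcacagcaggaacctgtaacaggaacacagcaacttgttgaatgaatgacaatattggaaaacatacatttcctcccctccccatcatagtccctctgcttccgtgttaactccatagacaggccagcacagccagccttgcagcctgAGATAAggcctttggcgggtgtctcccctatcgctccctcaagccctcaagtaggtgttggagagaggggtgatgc
AKR1C1 and AKR1C2 encode aldo-keto reductases that reduce ketosteroids, among them progesterone and dihydrotestosterone. The AKR1C1 window is chr10:4963165-4963414 on the + strand and the AKR1C2 window is chr10:5003858-5004107 on the - strand. They share a run of 245 of the 250 bases, and here the capitals mark the bases outside that shared run.
AKR1C1: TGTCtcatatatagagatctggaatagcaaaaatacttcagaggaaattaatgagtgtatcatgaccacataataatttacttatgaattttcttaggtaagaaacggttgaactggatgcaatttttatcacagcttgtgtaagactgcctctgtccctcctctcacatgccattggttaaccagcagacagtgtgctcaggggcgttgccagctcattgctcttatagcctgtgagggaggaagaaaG
AKR1C2: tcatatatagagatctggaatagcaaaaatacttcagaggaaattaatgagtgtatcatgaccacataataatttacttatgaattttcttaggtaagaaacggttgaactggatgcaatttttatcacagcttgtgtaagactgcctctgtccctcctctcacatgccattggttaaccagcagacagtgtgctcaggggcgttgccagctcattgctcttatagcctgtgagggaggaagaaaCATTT
In RHD and RHCE the AGATAA match lies 76 to 71 bases before the start. Searched on both strands, AGATAA was present in 9.17% of 35116 human promoter windows of this length, AGAACA, a half-site of the androgen receptor, in 12.4%, TGACNNNGC, the core of the antioxidant response element, in 10.9%, and the p53 half-site in 5.57%. None of the latter 3 was matched in these 4 windows. A match is only a description of the letters. Over 575 probe sets with promoters of 2 listed genes at hand, 17 of the 245 whose closest promoters were at least 80% identical passed the test described below (6.94%), and 19 of the 330 with less alike promoters (5.76%).

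The deposited values are log2 values in which the median of the 3 control arrays is 0 for each of the 49293 probe sets, so differences between arrays can be read but levels cannot. For the same reason the prostate markers of LNCaP cannot be read as levels. In urolithin A replicate 3 the members stood further from their group mean than on the other arrays (SD 0.202 on the log2 scale, against 0.134 to 0.164). In 7 members 1 array lay more than 1 log2 unit from the nearest other array of its group, and in 4 of the 7 that array was urolithin A replicate 3, each time the higher one. These 4 are listed with hemoglobin, immunoglobulin and HLA-DR genes, and none of the 4 passed the test described below.

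For HBB and HBD, the adult hemoglobin beta and delta chains, the control arrays read -0.21, 0 and 0.06 and the urolithin A arrays 0.08, 1.04 and 6.60 in replicates 1, 2 and 3. The groups do not overlap, yet the change of 2.63 ± 1.38 (SE) did not pass in limma (adjusted p = 0.312). The probe set of the hemoglobin alpha genes HBA1 and HBA2 read 0.62 in the same array and between -0.06 and 0.08 in the other 5. For IGKC and IGK, the immunoglobulin kappa constant region, replicate 3 read 3.58 and the other 5 arrays lay between -0.55 and 0.61. An entry with HLA-DRB3 and HLA-DRB5, class II molecules of antigen-presenting cells, read 2.86 in that array and -0.42 to 0.15 in the rest. A second one, with HLA-DRB1, HLA-DRB3, HLA-DRB4 and HLA-DRB5, read 1.53 there and at most 0.47 elsewhere. Neither HLA-DRB probe set passed (limma adjusted p = 0.341 and 0.178). In the other 3 of the 7, control replicate 1 read -1.12 for GOLGA8A and GOLGA8B, urolithin A replicate 2 read -0.42 for ZNG1B and ZNG1E beside 0.74 and 0.65 in the other 2, and urolithin A replicate 1 read -3.12 for the TRIM48 entry described below.
Single-gene markers were set beside these values. Of 12 red blood cell markers 8 were measured, and only HBB, as the mean of its 2 probe sets, exceeded 0.5 on any array, at 2.32 in urolithin A replicate 3, while the mean over the list was -0.03 to 0.06 in the control arrays and -0.06 to 0.35 in the urolithin A arrays. Of 12 leukocyte markers 11 were measured, the list mean was 0.00 to 0.10 in the control arrays and 0.04 to 0.47 in the urolithin A arrays, and 2 of the 11 exceeded 0.5 in urolithin A replicates 2 and 3. The HLA class II gene HLA-DRA read 1.01 in control replicate 1, 1.17 in urolithin A replicate 2 and 3.09 in replicate 3. The part of other cells or their RNA in these values was not tested.

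Each probe set was compared between urolithin A and control with limma over all 49293 probe sets. A probe set passed when its p, adjusted by Benjamini-Hochberg over all of them, was under 0.05. Of the 1327 members 91 passed (6.86%), beside a background of 8.41% over the whole table. The 91 divide into 42 that rose, beside a background of 4.01%, and 49 that fell, beside a background of 4.4%, and they belong to 69 entries. In all 91 the 3 urolithin A arrays lay outside the range of the 3 control arrays. Such a gap between the groups was present in 328 members (24.7%) and in 27.9% of all probe sets. Changes of 2-fold or more that passed numbered 10 in the members, against 0.917% of all probe sets.
Most changes were small. The median size of a change that passed was 0.55 on the log2 scale, or 1.46-fold, and over all members the median size was 0.11, against 0.12 over the whole table. 34 of the 91 also passed in each of 6 fits that left out 1 array, 16 of them higher and 18 lower. Quantile normalization of the deposited values left 7 higher and 8 lower, all 15 among the 91, with 1.17% called over the table. The controls are centred on 0 at each probe set, so making the arrays alike can itself alter the changes. This drop can therefore not show which calls are sound. The number that rose was 24, 19 and 27 without control replicates 1, 2 and 3, and 26, 24 and 34 without urolithin A replicates 1, 2 and 3. For those that fell the numbers were 23, 23 and 22, and 26, 31 and 27. Of the 42 and 49, 18 and 13 had a change of at least 1.5-fold.

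The deepest fall was that of the probe set listed with TARP and TRGC2. Both are products of the T cell receptor gamma locus, and TARP is a short transcript of that locus known from prostate epithelium, where androgen raises it. Control arrays read 0, -0.11 and 0.20, and urolithin A arrays -4.19, -4.24 and -4.49. The treated arrays thus lay close together and far below all controls. The change was -4.33 ± 0.12 (SE), or 20.2-fold lower (limma adjusted p = 3.33e-06), and it passed without each single array. Neither gene has a probe set of its own on this array, so the 2 transcripts could not be separated. In such bulk RNA, fewer cells of a type and less RNA per cell cannot be told apart.

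2 entries of TRIM genes, which encode RING-type proteins of the tripartite motif family, followed in size. The entry with GRM5P1, a pseudogene of a glutamate receptor gene, TRIM49D2 and TRIM48 read -0.35, 0 and 0.45 in the controls and -3.12, -1.72 and -1.99 after urolithin A. Its change was -2.31 ± 0.34 (SE, limma adjusted p = 0.005). A probe set of GRM5P1 alone fell by 1.93, and one of TRIM48 alone had a change of -0.55 that did not pass. For TRIM53BP and TRIM53AP, both pseudogenes, the controls lay between -0.02 and 0.01 and the treated arrays at -1.0, -1.56 and -1.73, a change of -1.43 ± 0.17 (adjusted p = 0.00199). Both calls were kept without each single array.

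CHRNA7 encodes the alpha 7 subunit of the nicotinic acetylcholine receptor, and CHRFAM7A is a fusion gene that holds part of its copy. Their shared probe set read -0.04, 0.26 and 0 in the controls and -0.99, -1.61 and -0.76 after urolithin A, a change of -1.19 ± 0.20 (SE, limma adjusted p = 0.00836). The other probe set of this entry changed by -0.19 and did not pass. EMB, or embigin, is a membrane glycoprotein that accompanies monocarboxylate transporters. A probe set listed with EMB and its pseudogene EMBP1 read -0.09, 0.18 and 0, and then -1.0, -1.23 and -0.86 (change -1.06 ± 0.12, adjusted p = 0.00159). Its groups lie about 1 log2 unit apart with no overlap. The other EMB and EMBP1 probe set stayed between -0.08 and 0.13 on all arrays, with a change of 0.04, while the single EMB probe set fell by 1.07. The difference between the last 2 passed (1.11 ± 0.13, adjusted p = 0.00848).

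CEP43 encodes a protein of the centrosome and cilium base, and CCR6 a chemokine receptor of lymphocytes. Both probe sets of this entry fell. The first read 0, 0.07 and -0.11 in the controls and -1.04, -0.88 and -0.97 after urolithin A (change -0.95 ± 0.09, SE, limma adjusted p = 0.000904), and the second changed by -0.92 ± 0.11 (adjusted p = 0.00199). The treated arrays of both form a tight group below the controls. CEP43 alone, over 2 probe sets, fell by 0.98, and CCR6 alone, over 3, changed by 0.03.
WDR5 is a core subunit of the complexes that methylate histone H3 at lysine 4. Its probe set shared with the pseudogene WDR5CP read 0, 0.09 and -0.12, and then -0.98, -0.77 and -0.88 (change -0.87 ± 0.10, adjusted p = 0.00163). The 2 probe sets of WDR5 alone had a mean change of -0.03. TPM4 encodes a tropomyosin, an actin filament protein, and its probe set shared with TPM4P2 read 0, 0.41 and -0.01, and then -0.49, -0.59 and -0.78. It fell by 0.75 ± 0.13 (adjusted p = 0.0115), beside -0.53 for TPM4 alone and -0.30 in the other probe set of the entry, which did not pass. LMNB1, the nuclear lamin B1, shares a probe set with PCIF1, an mRNA cap methyltransferase, that fell by 0.61. That fall had an adjusted p of 0.103, 0.109, 0.0678 and 0.0729 without control replicates 1 and 2 and urolithin A replicates 2 and 3. LMNB1 alone fell by 0.53 in the mean of 4 probe sets, 2 of which passed, and PCIF1 alone changed by -0.06.

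Among the members that passed and were higher, those of RHCE and RHD had the largest changes, although HBB and HBD, which did not pass, changed by more. Of the 10 probe sets of this entry 6 passed, all higher, beside 4.01% higher over the table. In 8 the groups did not overlap, all of them higher, beside 14.4% over the table. The 10 list the same genes and are not independent of each other. The largest change was in a probe set that read 0.17, -0.02 and 0 in the controls and 2.75, 2.27 and 1.52 after urolithin A, or 2.13 ± 0.26 (SE, 4.37-fold, limma adjusted p = 0.00223). The next 3 read 2.49, 1.86 and 1.55, then 2.80, 2.05 and 1.32, then 2.21, 1.82 and 0.88 after urolithin A, above controls of -0.15 to 0.21. They changed by 2.01, 1.99 and 1.66, and the remaining 2 that passed by 0.89 and 0.58. The change of 0.58 had adjusted p-values of 0.0528 to 0.105 without each control replicate and 0.0698 and 0.067 without urolithin A replicates 1 and 2, whereas the other 5 were kept without each array. In the 4 probe sets that did not pass the changes were 1.10, 0.72, 0.50 and 0.15, and the last turned to -0.06 without control replicate 3.
In each of the 6 that passed, urolithin A replicate 1 was the highest of the treated arrays. Urolithin A replicate 3, where HBB and HBD were highest, was the lowest of the 3 in 5 of the 6. Without that array the 4 largest changes were 2.46, 2.22, 2.36 and 2.03. The measured single-gene red blood cell markers other than HBB did not exceed 0.5 on any array, as given above. The probe set shared by HBA1 and HBA2 did so in urolithin A replicate 3. The part of other cells or their RNA in the RHCE and RHD values was not tested.
Single-gene probe sets of these genes moved less. RHCE alone, over 2 probe sets, changed by 0.62 and 0.69, and RHD alone, over 9, by -0.10 to 0.22, and none of the 11 passed. The probe set that changed by 2.13 differed from the mean of the RHCE probe sets by 1.47 ± 0.14 (SE, limma adjusted p = 0.00433) and from that of RHD by 2.07 ± 0.26 (adjusted p = 0.0101), both also without each single array.

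Further entries with probe sets that rose were those of AKR1C1, TP53TG3, GDF15 and IGF2. For AKR1C1 and AKR1C2, whose promoters are printed above, the controls read -0.10, 0.11 and 0 and the treated arrays 0.46, 1.03 and 1.47. The treated arrays are spread over about 1 log2 unit, all above the controls. The change was 0.98 ± 0.22 (SE, 1.97-fold, limma adjusted p = 0.0278), with an adjusted p of 0.0885, 0.0673 and 0.0729 without control replicates 1, 2 and 3 and 0.0838 without urolithin A replicate 2. AKR1C1 alone changed by 0.23 over 2 probe sets, and AKR1C2 alone by -0.21 to 0.94 over 5, of which only the highest passed.
TP53TG3 and TP53TG3B are copies of a gene named for its induction by p53. They share 4 probe sets, of which 1 passed, with -0.31, 0 and 0.21, and then 0.88, 0.96 and 1.09 (change 1.01 ± 0.14, 2.02-fold, adjusted p = 0.00352). The lowest change of this entry was -0.30, and the groups overlapped in the 3 that did not pass. GDF15 is a secreted stress cytokine of the TGF-beta superfamily, and 2 probe sets list it under several gene identifiers. They changed by 0.77 ± 0.11 (adjusted p = 0.00463) and 0.68 ± 0.14 (adjusted p = 0.0186), beside 0.65 for a probe set with a single GDF15 entry. The smaller of these had an adjusted p of 0.0663 and 0.0699 without control replicates 1 and 2.
IGF2, an insulin-like growth factor, is listed with the readthrough gene INS-IGF2 on 6 probe sets. Only 1 passed, with controls of 0, 0.36 and -0.02, treated arrays of 0.87, 1.00 and 0.80 and a change of 0.78 ± 0.12 (SE, limma adjusted p = 0.00635). The lowest change of the entry was -0.09, and INS-IGF2 alone changed by -0.15.

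TRIM16, an E3 ubiquitin ligase, and its partial copy TRIM16L shared a probe set that read 0.25, 0 and -0.40 in the controls, 0.67, 0.84 and 0.75 after urolithin A, and changed by 0.81 ± 0.15 (SE, limma adjusted p = 0.0151, and 0.0553 without urolithin A replicate 2), next to 0.72 for TRIM16 alone, which passed. ATG4C is a protease that processes autophagy proteins and CTR9 a subunit of the PAF1 transcription complex. Their probe set read 0.14, 0 and -0.07 in the controls and 0.75, 0.96 and 0.72 after urolithin A (change 0.79 ± 0.10, adjusted p = 0.00295). ATG4C alone changed by 0.27 and CTR9 alone by 0.26, and neither passed. ULBP2, RAET1L and RAET1G encode stress ligands of the NKG2D receptor of natural killer cells. The 3 probe sets with 2 or 3 of them that passed changed by 0.47, 0.53 and 0.55, and none of them passed without control replicate 1 or 2 or without urolithin A replicate 1 (adjusted p 0.0519 to 0.106). Without urolithin A replicate 2 or 3, 1 of the 3 was lost (adjusted p 0.102 and 0.0742). The remaining probe set, with all 3 genes, changed by 0.22 and did not pass. ULBP2 alone changed by -0.06 to 0.19, RAET1L alone by 0.18 and RAET1G alone by -0.14, and none of these passed.
FOLH1, the prostate-specific membrane antigen, shares 2 probe sets with FOLH1B. One rose by 0.43 ± 0.08 (adjusted p = 0.0142, and 0.0569 and 0.0505 without control replicate 2 and urolithin A replicate 1), and the other changed by 0.30 and missed the threshold (adjusted p = 0.0633). FOLH1 alone changed by 0.24 to 0.35 over 3 probe sets, 2 of which passed.

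How the listed genes relate to each other was read from RefSeq, and the share that passed was set against 8.41% over the table. Members that list a gene with a pseudogene passed in 32 of 327 cases (9.79%), 14 higher and 18 lower. Members whose genes share the first 3 characters of the symbol, mostly paralogs, passed in 20 of 557 (3.59%), 11 higher and 9 lower. Where the symbols differ and the genes lie within 10000 bases of each other, 15 of 143 passed (10.5%), 2 higher and 13 lower. Where they differ and lie further apart, 14 of 96 passed (14.6%), 10 higher and 4 lower, and 6 of those 10 are the RHCE and RHD probe sets. That entry stands here only because the first 3 characters, RHC and RHD, differ. The promoter windows of its genes are 99.2% identical, so this class is not one of unlike genes alone. Readthrough entries passed in 5 of 53, repeated symbols in 3 of 58, entries with a noncoding RNA in 1 of 57 and those with fewer than 2 genes in RefSeq in 1 of 36. Among the 89 members with 5 or more symbols 1 passed and 7 had an unadjusted p under 0.05. These shares are descriptions, since probe sets of an entry list the same genes and are not independent.

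The 13 that fell among neighbouring genes come from 5 entries. GCOM1 and POLR2M, the latter a protein that binds RNA polymerase II, fell in 4 of 6 probe sets, by 0.63, 0.58, 0.37 and 0.36. The change of -0.58 was kept without each array (limma adjusted p = 0.00506), with controls at 0, -0.06 and 0.07 and treated arrays at -0.50, -0.62 and -0.61. The other 3 had adjusted p-values of 0.0358 to 0.049 and were each lost without control replicate 1, 2 or any urolithin A replicate, at 0.0584 to 0.151, and 2 of them without control replicate 3, at 0.0776 and 0.079. The highest change of the entry was 0.19, which did not pass. GCOM1 alone changed by 0.08 and 0.11 and POLR2M alone by 0.09, and none of these passed. CTRL, a chymotrypsin-like protease, and PSMB10, a subunit of the immunoproteasome, fell in 3 of 3 probe sets, by 0.55, 0.49 and 0.45, each lost without any 1 control replicate or without urolithin A replicate 3 (adjusted p 0.0545 to 0.134), and the first 2 also without urolithin A replicate 1 (0.0996 and 0.0767). PEG3, an imprinted zinc finger gene, and its neighbour ZIM2 fell in 3 of 3, by 0.50, 0.47 and 0.36, and only the first was kept without each array. The other 2 had adjusted p-values of 0.0698 to 0.132 without any 1 control replicate or urolithin A replicate 1 or 3, and the last 0.113 without urolithin A replicate 2. TREX2, a DNA exonuclease, and HAUS7, a subunit of the augmin complex of the spindle, fell in 2 of 2, by 0.60 and 0.51, also lost without any 1 control replicate (adjusted p 0.051 to 0.118), and the first without urolithin A replicate 1 or 3 (0.128 and 0.119). HAUS7 alone fell by 0.40 in the mean of 3 probe sets, 2 of which passed, and TREX2 alone changed by 0.10. SUN1, a protein of the inner nuclear membrane, and GET4, a factor for membrane protein insertion, fell in 1 of 4 probe sets, by 0.31 (adjusted p = 0.0453, and 0.092 to 0.129 without any 1 array). The groups did not overlap in any of the 4, and the highest change of the entry was 0.31, which did not pass.

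Genes listed with their pseudogenes, 327 of the 1327 members, gave 18 of the 49 falls and 14 of the 42 rises. Of the 327, 9.79% passed, beside 8.41% over the table. The entries that follow are falls. GMPS, which makes GMP, and GMPSP1 read 0.01, 0 and -0.02, and then -0.51, -0.59 and -0.55 (change -0.55 ± 0.08, SE, limma adjusted p = 0.00476). NUS1, a subunit of the dolichol-forming prenyltransferase, and NUS1P3 fell by 0.56 (adjusted p = 0.00649). NUS1 alone moved otherwise, with changes of -0.20 to 0.54 over 4 probe sets, of which only the highest passed (adjusted p = 0.0161). ISCA1, an iron-sulfur cluster assembly protein of mitochondria, and ISCA1P1 fell by 0.52 (adjusted p = 0.00864), beside -0.51 for ISCA1 alone, while the other probe set of this entry changed by -0.04. All 3 falls were kept without each array. MSTO1, misato, a protein of mitochondrial distribution, and its copy MSTO2P fell in 4 of 6 probe sets, by 0.39 to 0.53, and all 4 were lost without control replicate 1 or 3 or urolithin A replicate 2 (adjusted p 0.0546 to 0.132) and 3 of the 4 without each other array (0.0592 to 0.124). AURKA, the mitotic kinase Aurora A, and AURKAP1 fell by 0.38 (adjusted p = 0.0404, and 0.0725 to 0.131 without any 1 array), beside -0.09 for AURKA alone.

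Families were formed from symbol patterns, and each took the members with at least 2 matching symbols. The largest holds genes of segmental duplications, such as NBPF, GOLGA, GTF2I, NOTCH2NL and RGPD copies, and 12 of its 171 members passed (7.02%, against 8.41% over the table), 5 higher and 7 lower. All 3 probe sets with GTF2IRD2 copies that passed were higher, by 0.49 and 0.55 in the entry of GTF2IRD2B and GTF2IRD2 and by 0.57 in another entry. Each of the 3 was lost without control replicate 2 or 3 or urolithin A replicate 2 (limma adjusted p 0.0551 to 0.127), and 2 of the 3 without each other array (0.0638 to 0.118). GTF2I, a transcription factor, with its copies GTF2IP4 and GTF2IP1 rose by 0.58 ± 0.08 (SE, adjusted p = 0.00443), kept without each array, and their other probe set changed by 0.33 and did not pass. A probe set of GTF2I alone changed by -0.14 and did not pass. NOTCH2NLA, a partial copy of NOTCH2, and NOTCH2 fell in 2 of 3 probe sets, by 0.57 and 0.55 (adjusted p = 0.00484 and 0.00861), also kept. The third changed by 0.15, and NOTCH2 alone by -0.12 to 0.20 over 5 probe sets, none of which passed. FAM72A to FAM72D, genes expressed with the cell cycle, fell by 0.63 in 1 of 3 probe sets (adjusted p = 0.0143, and 0.0575 without control replicate 2).
In the zinc finger family 4 of 25 members passed (16%), all higher, beside 4.01% higher over the table. 2 of them list ZNF658 with its copy ZNF658B. The first read 0.19, -0.05 and 0 in the controls and 1.20, 1.03 and 0.72 after urolithin A (change 0.94 ± 0.13, adjusted p = 0.00442), and the second changed by 0.90. The 2 others changed by 0.50 (ZNF20 and ZNF625) and 0.45 (ZNF585A and ZNF585B), and both were lost without control replicate 2 or 3 or urolithin A replicate 2 (adjusted p 0.0553 to 0.114). The first was also lost without urolithin A replicate 1 (0.0808), and the second without control replicate 1 or urolithin A replicate 3 (0.097 and 0.101).
The immunoglobulin and T cell receptor family had 1 of 33 members past the threshold, 1 listed with IGH, IGHA1 and IGHA2 (3.03%). The entry of TARP and TRGC2 has only 1 symbol of the pattern and is outside this count. The IGHA1 entry fell by 0.54 ± 0.09 (adjusted p = 0.00928), from 0.06, -0.16 and 0 to -0.62, -0.58 and -0.51, whereas the other probe set of the entry changed by 0.08 and IGHA1 alone, over 3 probe sets, by 0.22. The mean of the leukocyte markers given above was 0.04 to 0.47 in the urolithin A arrays, and their median was -0.002 to 0.15. Single members passed among steroid and drug oxidoreductases (1 of 15, AKR1C1 and AKR1C2, 6.67%), solute carriers (1 of 9, 11.1%) and kinases and phosphatases (1 of 11, 9.09%), beside the same 8.41%. The solute carrier entry, SLC35E2B and SLC35E2A, rose by 0.47 (adjusted p = 0.0193) in 1 of 2 probe sets, beside 0.01 in the other, and was lost without control replicate 1 or 2 or urolithin A replicate 1 or 3 (0.0551 to 0.07). The kinase and phosphatase entry, CDKL3 and PPP2CA, rose by 0.39 (adjusted p = 0.0286) and was lost without any 1 array but urolithin A replicate 3 (0.0738 to 0.0903).

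Of the 2 actin and myosin members 1 passed, an entry that repeats ACTR3B, which encodes an actin-related protein. It fell by 0.45 (adjusted p = 0.0318) and was lost without any 1 array but control replicate 2 (0.0636 to 0.0997). The remaining symbol-pattern families had no member past the threshold in limma, the only test run. The count with an unadjusted p under 0.05 was 2 of 53 for cancer-testis genes, 2 of 39 for olfactory receptors, 6 of 22 for RNA-binding and splicing factors, 1 of 19 for leukocyte receptors, 1 of 15 for chemokines and interferons, 1 of 13 for pregnancy-specific and CEA-family genes, 0 of 12 for defensins and 1 of 11 for histones. Over all members it was 258 of 1327, and 11141 of 49293 over the whole table. The cancer-testis and olfactory genes, mostly silent outside the germline and the nose, kept to changes of -0.28 to 0.24 and -0.31 to 0.29.
RNA-binding and splicing factors had a median change of -0.12, against 0.01 over the table, with 11 of 22 members separate between groups, 9 of them lower, where 27.9% of all probe sets were separate and 13.5% separate and lower. The nearest to the threshold were HNRNPA3 with HNRNPA3P1 (-0.35, adjusted p = 0.0621), RBMX with RBMXL1 (-0.30) and EIF3C with EIF3CL (-0.27). The other probe set of HNRNPA3 and HNRNPA3P1 was also separate between the groups and changed by 0.15. The 11 separate members also include 3 of 5 probe sets of EIF3C and EIF3CL and 2 of 2 of RBMX and RBMXL1. Probe sets of an entry list the same genes, so the 11 are not independent members. Of 9 members of ATP synthase and mitochondrial proteins, 5 were separate, 4 of them lower, beside the same 27.9% and 13.5%, with a median change of -0.17. The 4 lower ones come from only 2 entries with a repeated symbol, NDUFA10 (-0.22 and -0.17) and TIMM23 (-0.19 and -0.17). They are therefore not 4 independent members.
H4C14 and H4C15, genes of histone H4, came closest among histones, with controls of 0, 0.30 and -0.08 and treated arrays of 0.56, 0.86 and 0.42. The arrays do not overlap, and the change of 0.54 ± 0.14 (SE) missed the threshold (adjusted p = 0.051), while their other probe set changed by 0.01. The 9 members of the UGT family, enzymes that attach glucuronic acid to steroids and drugs, changed by -0.18 to 0.22, and 0 had an unadjusted p under 0.05. The 5 kallikrein members all list KLK8 and KLK9, serine proteases, and changed by -0.10 to 0.06. The 2 metallothionein members changed by 0.24 and 0.32, the 2 tubulin members by -0.09 and -0.04, and the 3 members of glutathione transferases by -0.13 to 0.32. Among 6 HLA members the largest changes are those of HLA-DRB genes given above.

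Probe sets of the same entry list the same genes, so their spread shows how far a single one can be taken. Over the 267 entries with more than 1 probe set, the changes within an entry spanned a median of 0.17 and an upper quartile of 0.31 log2 units, and at most 1.97, in RHCE and RHD. A call was present in 34 of these entries, with 2 or more calls in 12 and with all probe sets called in 7. 0 entries held calls in both directions.

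Whether a shared probe set moved like its genes was tested directly. Its value on each array, minus the mean of the single-gene probe sets of a listed gene, was compared between the groups with limma. There were 1521 such pairs over 984 members, and 51 pairs from 43 members differed (3.35%), beside a background of 3.6% over all 40357 pairs of the table. Pairs of a single-gene probe set with the rest of its own gene differed in 1400 of 38836 cases (3.6%). Of the 51, 19 also differed without each single array. The number that differed was 22, 24 and 22 without control replicates 1, 2 and 3, and 26, 31 and 27 without urolithin A replicates 1, 2 and 3. For 417 members 2 or more listed genes could be compared, and 21 of them differed from some of these genes but not from all, and 7 from all. Among the 91 members that passed, 81 had a pair and 27 differed from a listed gene. The member's own change is part of each difference, so members selected for a change differ more often by construction. The 27 can therefore not be set against the 3.6%.
The examples that follow differed also without each single array. TSPAN3, a tetraspanin, and ANKH, a transporter that exports pyrophosphate and ATP, share a probe set that read 0.07, 0 and -0.01 in the controls and 0.88, 0.62 and 0.65 after urolithin A (change 0.70 ± 0.10, SE). TSPAN3 alone rose by 0.54, whereas ANKH alone read 0.07, -0.09 and 0.11, and then -0.64, -0.32 and -0.52 in the mean of 4 probe sets. Of the 4 ANKH probe sets 2 fell, by 1.32 and 0.67, and the others changed by -0.11 and 0.01. The difference of the shared probe set from the ANKH mean was 1.22 ± 0.15 (limma adjusted p = 0.0094). A probe set of CMTM1 and the neighbouring chemokine-like gene CKLF changed by 0.53, while CKLF alone fell by 0.54, a difference of 1.07 ± 0.13 (adjusted p = 0.00956). The rise of that probe set itself was lost without control replicates 1 and 2 and without each urolithin A replicate (adjusted p 0.0633 to 0.142). CMTM1 alone changed by -0.06 to -0.02, and none of its probe sets passed. The CEP43 and CCR6 probe sets differed from CCR6 by -0.97 ± 0.09 and -0.94 ± 0.11 (adjusted p = 0.00433 and 0.00719), that of WDR5 and WDR5CP from WDR5 by -0.84 ± 0.11 (adjusted p = 0.0106) and that of IGF2 and INS-IGF2 from INS-IGF2 by 0.93 ± 0.12 (adjusted p = 0.00993).

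In 16 members that did not pass, a listed gene moved away from the shared probe set. RPL37, a ribosomal protein gene, and SNORD72, a small nucleolar RNA processed from one of its introns, share a probe set that stayed between -0.03 and 0.01 on all 6 arrays. SNORD72 alone read -0.07, 0.01 and 0, and then 1.41, 1.26 and 1.33, and the difference of -1.36 ± 0.09 (SE) passed (limma adjusted p = 0.00239). RPL37 alone, over 5 probe sets, changed by -0.01 to 0.98, and 2 of them passed. TMEM183A, a membrane protein gene, rose by 0.92 and 1.01 in 2 probe sets of its own, but its 2 probe sets shared with TMEM183BP changed by 0.07 and 0.18 (differences -0.90 and -0.79, adjusted p = 0.00882 and 0.00993). For ANKHD1 and the readthrough ANKHD1-EIF4EBP3, 4 shared probe sets changed by -0.44 to 0.20, none of which passed. The highest of them differed from ANKHD1 alone, which changed by -0.61 in the mean of 2 probe sets, of which 1 passed (difference 0.81 ± 0.10, adjusted p = 0.0101). Each of these differences was kept without each single array.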

How the data were processed

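The authors deposited log2 values of 6 arrays, made by RMA (per the submitters' processing notes). Their log base is given nowhere and was taken as 2, the scale RMA uses. RMA makes the distributions of the arrays alike, so a shift of all transcripts would not show. The median of the control arrays had been subtracted from each probe set. Genome build, batches and scan dates are not given in the sources used here, and arrays limit the precision by their number. The members, families and marker lists were chosen with earlier results of these data known. Values were fitted as deposited, with no filter, in limma 3.58.1 (R 4.3.3; lmFit and eBayes, treatment only, two-sided), with Benjamini-Hochberg adjustment over 49293 probe sets or 40357 pairs. All 1327 members were fitted.

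Named members are the 12 highest and 12 lowest that passed, the 3 with the smallest p of each family of 5 or more, and the 6 with the largest differences from a listed gene. All other members named, such as the 10 of RHCE and RHD, were chosen after their values were seen. Not every member the rule covers is described. Of 3485 listed gene identifiers 3244 were matched in RefSeq. Alternatives were a replicate block, median centring, quantile normalization, a trended robust prior, array weights, named probe sets only, entry means, an adjusted p under 0.01, a fold of 1.5, no _x_at names, and each array left out. The fit was tested on simulated data.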

Additional observations from a re-analysis of the deposited data

How the results depend on the processing

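The counts of 42 higher and 49 lower probe sets with several genes, and of 51 pairs that differed from a listed gene, depended on the setting as follows. Centring each array, array weights, named probe sets only and leaving out _x_at names kept both counts within 1.5 times (38 to 44 higher, 41 to 52 lower), as did the mean over the probe sets of an entry (30 and 40 entries). Quantile normalization gave 7 and 8, all 15 also in the 91, with 1.17% of all probe sets called. It was run on values already centred on the controls and can itself alter the changes. A trended robust prior gave 27 and 24, with 5.19%. An adjusted p under 0.01 gave 15 and 16, and 13 pairs, and a minimum fold of 1.5 gave 18 and 13. Leaving out 1 array gave 19 to 34 higher, 22 to 31 lower and 22 to 31 pairs, with fewer arrays in each fit, and the median of the single-gene probe sets as reference gave 50 pairs.

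Replicate numbers are shared by the groups, but no label says what they mark, and the deviations of same-numbered arrays correlated at 0.07, 0.003 and 0.15 (control replicate 2 was closest to urolithin A replicate 1), so they were not taken as pairs. With the replicate block 36 rose and 41 fell, 68 of these 77 being among the 91, and 29 pairs differed.

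Changes under each setting were followed for 178 of the 1327 members. Among these, the changes that turned sign when 1 array was left out belong to members that did not pass. Their ranges were -0.060 to 0.058 and -0.15 to 0.0024 for 2 probe sets of ANKHD1-EIF4EBP3 and ANKHD1, -0.050 to 0.39 and -0.39 to 0.10 for 2 of the UGT1A genes, -0.0013 to 0.13 and -0.20 to 0.15 for 2 of KLK8 and KLK9, -0.45 to 0.13 for GOLGA8A and GOLGA8B, -0.057 to 0.37 for 1 of RHCE and RHD, -0.013 to 0.0085 for RPL37 and SNORD72, -0.020 to 0.23 for RRN3 and its copies, and -0.24 to 1.67 for IGKC and IGK. The cause of these shifts was not tested. With 3 arrays a group, the smallest change that passed was -0.31, in SUN1 and GET4.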
